A study of Mus musculus with 6 samples.

Results

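The genes described here are 9 transcription factors of thalamic neurons, Tcf7l2, Lef1, Gbx2, Rora, Foxp2, Foxp1, Zic1, Zic4 and Zfhx3. They form a list of named regulators of thalamic identity, chosen with earlier results of these data known, and each was looked up by its symbol among the 32531 named genes of the read count tables. All 9 were found and all 9 were among the 16898 genes with enough reads to be tested. The assay was TRAP (translating ribosome affinity purification), in which ribosomes that carry a tagged ribosomal protein are pulled out of a tissue homogenate with the RNA bound to them. The 6 libraries came from the thalamus of adult, untreated control mice of the line Cbln1-EGFP/Rpl10a (NIDA030), which makes the ribosomal protein Rpl10a fused to enhanced green fluorescent protein (EGFP). In 3 libraries (IP) tagged polysomes had been immunopurified with antibodies against EGFP, and 3 libraries were Input. Every library, Input included, came from mice with the transgene, so the comparison was between fractions and not between genotypes. The line is named for Cbln1, and which thalamic cells carried the tag was not given in the sources used here. The labels name the thalamus, whereas the names of the deposited tables point to the parafascicular nucleus, 1 of its intralaminar nuclei. Whether replicates were separate animals is not stated, so a p-value measures the spread between these libraries alone, which may be technical.

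The thalamus relays sensory and motor signals to the cortex and striatum, and most of its neurons are glutamatergic. Tcf7l2 and Lef1 belong to the TCF/LEF family, which binds DNA with beta-catenin when a Wnt signal is present and with Groucho/TLE repressors when it is not. Tcf7l2 is made in thalamic and habenular neurons and is needed for their adult properties. Gbx2 is a homeobox factor switched on as thalamic neurons leave the cell cycle, Rora is an orphan nuclear receptor of the ROR family, Foxp1 and Foxp2 are forkhead repressors that can pair with each other, Zic1 and Zic4 are zinc finger factors related to the GLI proteins, and Zfhx3 (ATBF1) is a very large protein with zinc fingers and homeodomains.

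Of the 9 factors, 5 were higher in IP (Foxp1, Foxp2, Tcf7l2, Zfhx3 and Lef1), 3 were lower (Zic4, Zic1 and Rora) and 1, Gbx2, was not called. The forkhead pair stood out in size, at 4.67-fold for Foxp1 and 4.25-fold for Foxp2, and Zic4 followed with a 2.65-fold fall. Calls were common in these libraries: 23.3% of all genes tested were called higher and 24.3% lower in IP by edgeR's quasi-likelihood test with Benjamini-Hochberg adjustment over all genes, 47.5% in all. The 5 of 9 called higher (55.6%) and 3 of 9 called lower (33.3%) are read against that background. A call together with at least a 4-fold increase was less common, at 1.05% of all genes (178 genes), and 2 of the 9 had both. Their sizes depended on scaling. Library totals gave log2 fold changes of 1.98 for Foxp1 and 1.84 for Foxp2, both under 4-fold. Upper-quartile scaling gave 2.05 and 1.91. The values of IP and Input did not overlap for 4 members on the high side and 4 on the low side, where 27.9% and 33.7% of all genes did the same. The median log2 fold change of the 9 was 0.39, against -0.07 over all genes tested. Scaling mattered for the balance of calls: higher genes made up 48.9% of calls with TMM scaling, 36.7% with upper-quartile scaling and 31.9% with library totals, which moved the median of all genes by -0.18 and -0.24. With library totals, 3 members (Foxp1, Foxp2 and Tcf7l2) and 14.5% of all genes were called higher, and 3 members and 31% of all genes lower. IP and Input are fractions, so a difference between them is not by itself a change in cell number or in expression. Which cells carried the tag, the RNA level per cell and the share of RNA on ribosomes cannot be told apart. This holds for each difference below.

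**Figure D1:**
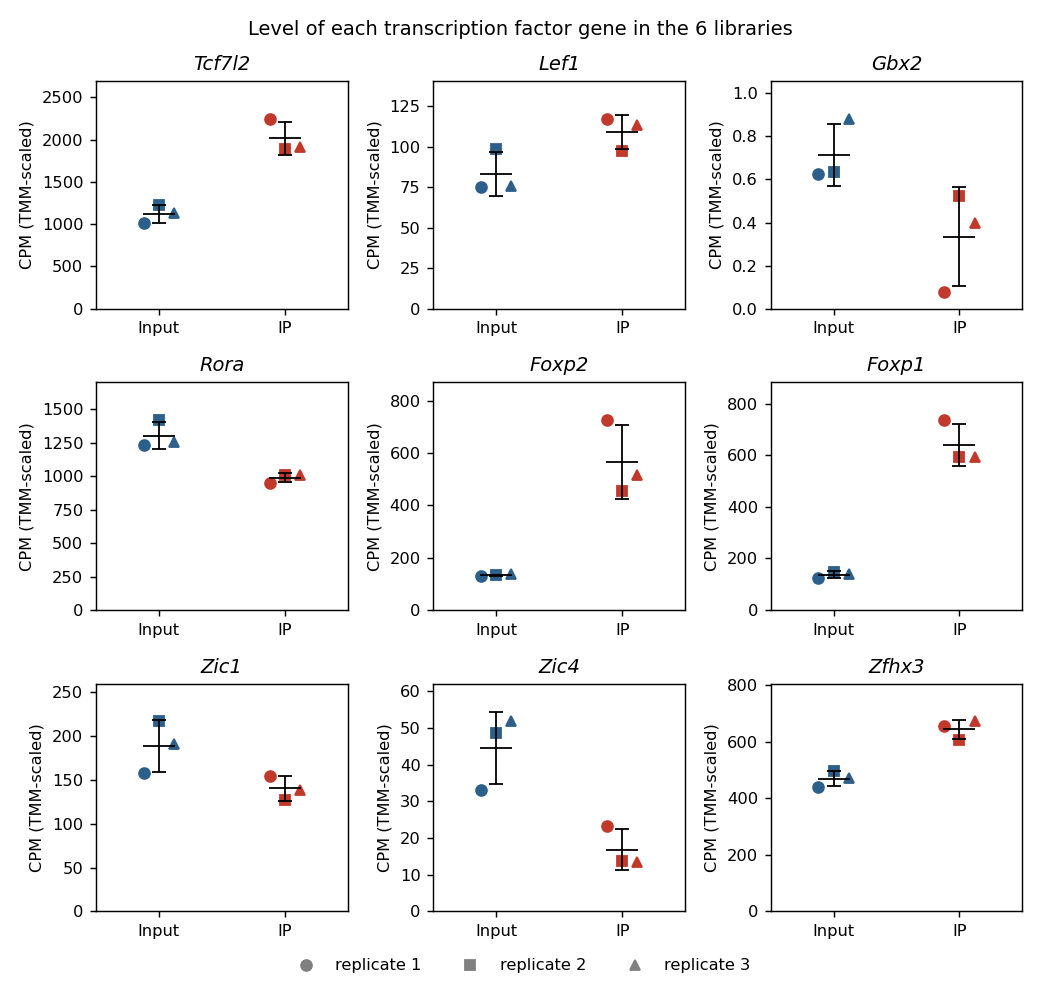
Each panel plots 1 gene, with TMM-scaled CPM (from 0) on the vertical axis, Input and IP side by side, symbols for the replicate number, and the mean with SD error bars (n = 3). IP lies above Input in every library for Tcf7l2, Foxp1, Foxp2 and Zfhx3 and below it for Rora, Zic1, Zic4 and Gbx2, and the groups overlap for Lef1.

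Assigned reads came to between 23929070 (Input replicate 1) and 57385828 (IP replicate 1) per library, and the counts of every replicate pair differed beyond sampling noise (chi-square per degree of freedom from 12.3 to 141). Cbln1, the namesake of the line, rose 17.9-fold, to 1361, 1428 and 1496 CPM in IP from 68.9, 83.2 and 87.2 in Input, where CPM are read counts relative to library size. The ribosomal RNA precursor Rn45s took 5.33 ± 0.103% of assigned reads in Input and 11.2 ± 2.86% in IP (SD, n = 3 per fraction). IP replicate 1 stood apart with 14.5%, against 9.38% and 9.74% in IP replicates 2 and 3. Of the IP libraries it had the highest Tcf7l2, Lef1, Foxp1, Foxp2, Zic1 and Zic4 and the lowest Rora and Gbx2. All CPM values carry TMM scaling (trimmed mean of M-values).

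Start regions are shown for a selection of the factors, from different families and from both directions. The 250 bases before a RefSeq transcript start (GRCm38.p6) were trimmed to the longest stretch that holds no exon annotated in GENCODE vM21. RefSeq start windows were at hand for 8 of the 9 members, in 14 windows. Capitals mark a match to the TCF/LEF core motif, searched as CTTTGAT or CTTTGAA on both strands. The Foxp1 window printed is the only Foxp1 window with such a match, so the mark comes with the choice of window. The stretches are Tcf7l2 at chr19:55741560-55741809 (plus strand, upstream of the gene), Foxp1 at chr6:99266533-99266765 (minus strand, before an internal start, intronic in the longer transcripts), Rora at chr9:68653536-68653785 (plus strand, upstream of the gene) and Zic1 at chr9:91365811-91366018 (minus strand, upstream of Zic1 and inside an intron of Zic4, which lies on the other strand).
Tcf7l2: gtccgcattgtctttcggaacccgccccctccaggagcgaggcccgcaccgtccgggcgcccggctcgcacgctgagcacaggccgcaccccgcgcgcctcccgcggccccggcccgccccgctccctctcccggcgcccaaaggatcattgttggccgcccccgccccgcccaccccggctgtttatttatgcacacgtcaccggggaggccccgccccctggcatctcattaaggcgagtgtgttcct
Foxp1: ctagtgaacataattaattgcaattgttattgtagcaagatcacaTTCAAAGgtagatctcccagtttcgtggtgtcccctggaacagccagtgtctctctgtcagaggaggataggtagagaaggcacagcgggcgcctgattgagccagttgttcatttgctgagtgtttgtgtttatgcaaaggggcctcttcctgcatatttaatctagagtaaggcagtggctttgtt
Rora: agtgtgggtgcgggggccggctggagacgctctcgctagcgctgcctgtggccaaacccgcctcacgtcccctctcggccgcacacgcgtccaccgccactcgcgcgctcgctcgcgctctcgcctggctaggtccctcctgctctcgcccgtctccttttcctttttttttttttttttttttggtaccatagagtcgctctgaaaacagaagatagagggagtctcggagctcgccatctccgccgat
Zic1: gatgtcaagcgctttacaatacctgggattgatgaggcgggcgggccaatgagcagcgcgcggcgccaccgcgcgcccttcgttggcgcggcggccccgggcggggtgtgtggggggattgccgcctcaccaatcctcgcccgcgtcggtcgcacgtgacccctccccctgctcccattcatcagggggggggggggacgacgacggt

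The stretches of Tcf7l2, Rora and Zic1 shown held 72.8%, 61.2% and 71.2% G and C, with 30, 26 and 26 CG pairs, and the internal Foxp1 stretch held 45.1% and 3 CG pairs. Starts of 1 gene differed as widely: the other Tcf7l2 window held 40.8% and the other 2 Foxp1 windows 74.0% and 60.8%. Over whole windows of 250 bases, the 14 of the members ranged from 40.8% to 74.0%, and the median of all 32851 RefSeq windows was 52.4%. Among the 14 member windows, the TCF/LEF letters occurred in 1, the Foxp1 window shown (CTTTGAA on the minus strand of the window, printed as TTCAAAG), and they occur in 7.48% of all windows. The ZIC letters CAGCAGG occurred in a pair of overlapping Lef1 windows and occur in 8.44% of all windows. Neither the ROR letters TAGGTCA or TGGGTCA (5.38% of all windows) nor the forkhead letters TGTTTAC (3.17%) occurred in a member window. A match describes the letters of the window and is not a binding site.

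The TCF/LEF pair was led by Tcf7l2, on chromosome 19 (55741820 to 55933654, plus strand, mm10, GENCODE vM21). Tcf7l2 stood at 1016, 1228 and 1129 CPM in the Input libraries, in the order of replicates 1 to 3, and at 2245, 1888 and 1910 CPM in the IP libraries. All IP libraries lay above all Input libraries, with IP replicate 1 the highest. The increase was 1.79-fold (log2 fold change 0.84, SE 0.10, adjusted p = 0.000129). Same-numbered libraries gave log2 ratios of 1.14, 0.62 and 0.76, though here and below the numbers were not taken to pair the samples. Tcf7l2 thus averaged 1124 ± 106 CPM in Input and 2015 ± 200 CPM in IP (SD, n = 3 each).

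Lef1, on chromosome 3 (131110471 to 131224356, plus strand), stood at 75.2, 98.6 and 75.6 CPM in Input and at 117, 97.4 and 113 in IP. Of its 8788 exonic bases, 1208 are shared with Gm43352 on the opposite strand. The strand setting of the read counting was not given, so reads there cannot be assigned to Lef1 with certainty. The groups overlapped, since IP replicate 2 fell just under Input replicate 2. The fit called a small increase (log2 fold change 0.39, SE 0.13, adjusted p = 0.0318), to 109 ± 10.5 CPM from 83.1 ± 13.4 (SD, n = 3 each). That call was lost in 9 of 17 alternatives, among them scaling by upper quartile (0.22, adjusted p = 0.204) and by library totals (0.15, adjusted p = 0.361), and without replicate 1 or 3 of either fraction. Without replicate 2 of both fractions it was 0.62 (adjusted p = 0.00548). Lef1 is also made by endothelial cells of brain vessels, and Tcf7l2 by cells of the oligodendrocyte lineage. The endothelial markers summed to 12.7 to 23.0 CPM in IP and 47.9 to 51.9 in Input, with 10 of 14 called lower and 4 not called. Of these markers, Cldn5 and Cdh5 had 0 counts in every IP library, whereas Slc2a1 was at 14.6 CPM in IP and 26.0 in Input. Markers of oligodendrocytes were lower in IP too, with sums given further on, and Tcf7l2 rose. The part of either cell type in the values of the pair was not tested.

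Within each library, reads of Tcf7l2 outnumbered those of Lef1 13.5-, 12.4- and 14.9-fold in Input and 19.2-, 19.4- and 16.9-fold in IP. This ratio needs no scaling between libraries, and every IP value lay above every Input value. The ratio was higher in IP by 0.44 on the log2 scale. An exact two-sided permutation test gave p = 0.1, the smallest that 3 against 3 libraries allow (0.15 after Benjamini-Hochberg adjustment over the 3 paralog pairs compared), so the design cannot place it under 0.05.

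The other family members had few reads. Tcf7l1, which represses Wnt targets, fell by 2.62 on the log2 scale, from 4.63 to 0.753 CPM (SE 0.69, adjusted p = 0.0116), a call lost without Input replicate 2 and without replicate 1 (adjusted p up to 0.0582). Tcf7, known from T cells, was at 2.77 CPM in IP and 3.79 in Input and was not called (adjusted p = 0.324).

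Genes that take part in Wnt signalling next to the TCF/LEF factors did not move as 1 block. Of 62 tested genes on that list, 22 were higher, 21 lower and 19 not called, with a median log2 fold change of -0.03, also with Rspo2, at 0 reads in IP, set at its bound (3 counts over the IP group). The median lay between -0.20 and 0.01 without 1 library or replicate number, and without Input replicate 3 there were 12 called lower. The counts by role below, and the genes named beyond the 2 highest and 2 lowest (Wnt4 and Fzd5, Tle3 and Fzd1), were set out after the values had been seen. Ligands and R-spondins were mostly lower (7 of 10, with 2 higher and a median of -1.38). Of 14 receptors, 7 were lower, 3 higher and 4 not called. None of the 4 secreted inhibitors was called by edgeR, 1 had an unadjusted p under 0.05, and DESeq2 and limma-voom called 1 each. Of 16 genes for beta-catenin and its nuclear partners, 8 were higher and 5 lower. Of 8 tested feedback and target genes, 5 were higher and 1 lower, with a median of 1.13.

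Among the feedback genes, Axin2, a scaffold of the beta-catenin destruction complex and a common readout of Wnt target expression, stood at 54.7, 47.6 and 52.1 CPM in Input and at 132, 149 and 151 in IP. The groups were far apart, and the increase was 2.80-fold (log2 fold change 1.49, SE 0.10, adjusted p = 6.96e-06). Nkd1, which dampens the pathway at Dishevelled, rose by 1.98 (log2, SE 0.14) and the R-spondin receptor gene Lgr5 by 1.90 (SE 0.18). Sp5, a zinc finger target gene, had 7, 5 and 2 reads in Input and 183, 100 and 38 in IP (log2 fold change 4.13, SE 0.94, adjusted p = 0.00589), a call that was lost without replicate 2 (adjusted p = 0.0509). Nkd2 was called higher (0.77, lost in 9 of 17 alternatives) and Rnf43, a ligase that removes Wnt receptors, lower (-1.26, lost in 4 of 17). Notum (0.44, adjusted p = 0.601) and Znrf3 (-0.33, adjusted p = 0.117) were not called. Znrf3 was called lower in 4 of 17 alternatives, upper-quartile scaling (-0.50), library totals (-0.56), the stricter filter and without IP replicate 2.

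Beta-catenin itself (Ctnnb1) rose to 966 ± 84.0 CPM from 529 ± 16.8 (SD, n = 3 each; log2 fold change 0.87, adjusted p = 4.22e-05). The corepressor genes Tle1 and Tle3 moved apart, with Tle1 2.79-fold higher and Tle3 2.74-fold lower. Among ligands, Wnt4 stood at 17.2 ± 1.86 CPM in Input and at 162, 169 and 187 in the IP libraries (log2 fold change 3.32, SE 0.12), and Wnt9b was 5.49-fold higher. Among the 7 that were lower, Wnt7b fell by 5.08 on the log2 scale, with 135, 189 and 224 reads in Input and 3, 0 and 14 in IP, Wnt7a by 2.81 (SE 0.61) and Wnt5a by 1.87 (SE 0.48, lost without Input replicate 3 and without replicate 3). Of the Frizzled receptors, Fzd5 was 9.31-fold higher (3.22, SE 0.15) and Fzd1 2.20-fold lower (-1.14, SE 0.23).

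**Figure D2:**
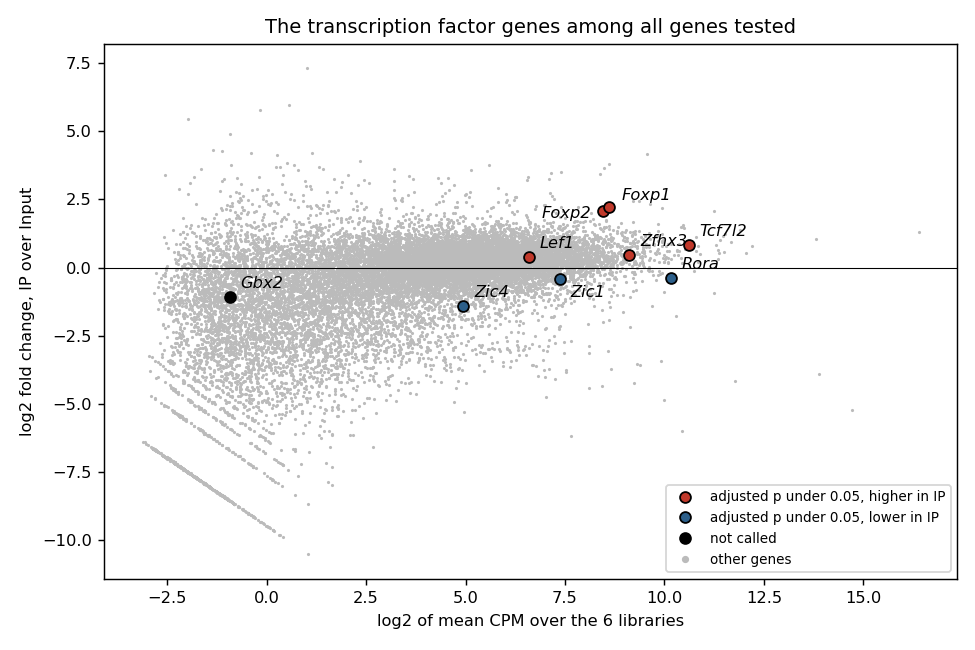
Each of the 16898 genes tested is a point, with the log2 of its mean CPM on the horizontal and its log2 fold change of IP over Input on the vertical axis. The 9 factors are marked, with Foxp1 (2.22) and Foxp2 (2.09) the highest among them.

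Foxp1 and Foxp2 both lie on chromosome 6, far apart (98925338 to 99522721, minus strand, and 14901349 to 15441977, plus strand). Foxp1 stood at 123, 147.5 and 141 CPM in Input and at 737, 594 and 595 in IP, and Foxp2 at 131, 132 and 136 in Input and at 726, 454 and 517 in IP. The lowest IP library of each was more than 3-fold above its highest Input library. Foxp1 rose by 2.22 (log2, SE 0.11, adjusted p = 1.59e-06) to 642 ± 82.0 CPM, and Foxp2 by 2.09 (SE 0.16, adjusted p = 1.25e-05) to 566 ± 142 CPM (SD, n = 3 each). Their log2 fold changes ranked at the 99.1 and 98.9 percentile of all genes tested. Replicate 1 gave the largest log2 ratio for both, 2.58 for Foxp1 and 2.47 for Foxp2, where the other same-numbered libraries gave 1.78 to 2.08.

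Reads of Foxp2 were about as many as those of Foxp1 in every library. The Foxp2 to Foxp1 ratio was 1.06, 0.897 and 0.963 in Input and 0.985, 0.764 and 0.868 in IP. The groups overlapped, and the log2 ratio differed by -0.16 (exact two-sided permutation p = 0.3, also 0.3 after adjustment over the 3 pairs). With 3 libraries a group this does not show that the pair changed alike. Foxp4, another forkhead gene of the family that the brain expresses, moved little, from 44.9 to 56.6 CPM (log2 fold change 0.34, adjusted p = 0.0374, lost in 11 of 17 alternatives), and Foxp3 had too few reads to be tested.

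Cofactors and competitors of the FOXP and ROR proteins showed no common direction. Of 27 tested, 7 were higher, 8 lower and 12 not called, with a median log2 fold change near 0 (-0.004). The count of lower calls in that list was 2 without Input replicate 2, Input replicate 3, replicate 2 or replicate 3, 3 without Input replicate 1, 4 without IP replicate 3 and 5 without replicate 1. Ctbp1, a corepressor that FOXP proteins bind, rose to 177 CPM from 86.0 (1.04, SE 0.12), and Mta3 of the NuRD complex to 169 from 100.1 (0.76, SE 0.10). Ctbp2 fell to 6.34 CPM from 13.7 (-1.11, SE 0.21), so the paralogous corepressor genes went opposite ways. Ppargc1a, a coactivator of nuclear receptors, fell to 113 CPM from 249 (-1.14, SE 0.13).

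Rora, on chromosome 9 (68653786 to 69388246, plus strand), was lower in IP. It stood at 1231, 1419 and 1258 CPM in Input and at 951, 1011 and 1006 in IP, with no overlap. The decrease was modest (-0.40 on the log2 scale, SE 0.08, adjusted p = 0.00261). Same-numbered libraries gave -0.37, -0.49 and -0.32, and library totals gave -0.63. Rora averaged 1302 ± 102 CPM in Input and 989.5 ± 33.3 CPM in IP (SD, n = 3 per fraction). Its relative Rorb was at 358 CPM in IP and 287 in Input and was called higher (0.32, SE 0.09, adjusted p = 0.0161), a call lost in 7 of 17 alternatives.

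Zic1 and Zic4 lie on opposite strands of chromosome 9 with overlapping starts, Zic1 at 91358058 to 91365810 on the minus strand and Zic4 at 91362413 to 91389348 on the plus strand. Their annotated exons share 60 bases, and since the strand setting of the read counting was not given, reads there cannot be assigned to either gene with certainty. The same holds for 468 exonic bases that Zic4 shares with Gm37477 on the opposite strand. Zic4 stood at 33.2, 48.6 and 51.7 CPM in Input and at 23.3, 13.8 and 13.4 in IP. The groups did not overlap, and Zic4 fell 2.65-fold (log2 fold change -1.40, SE 0.25, adjusted p = 0.00159). The log2 ratio of same-numbered libraries was -0.51 for number 1 and -1.82 and -1.95 for numbers 2 and 3. Zic1 stood at 158, 217 and 191.5 CPM in Input and at 155, 127 and 139 in IP. The groups were separated by only the small gap in replicate 1, where the log2 ratio was -0.03, against -0.77 and -0.46. The fit called a decrease (log2 fold change -0.43, SE 0.13, adjusted p = 0.0199), which was lost without replicate 2 (-0.24, adjusted p = 0.183) or replicate 3 (-0.40, adjusted p = 0.156), and also without IP or Input replicate 2 or 3 alone. With library totals it was -0.67 (adjusted p = 0.00252).

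Input replicate 1, in which both Zic genes were lowest among the Input libraries, also had the fewest reads of Ttr, a gene of the choroid plexus. Ttr had 71 reads there against 24784 and 28317 in Input replicates 2 and 3, and 0, 1861 and 1490 in IP. In IP the order was the other way, since IP replicate 1, with no Ttr reads, had the highest Zic1 and Zic4 of the IP libraries. Its part in the Zic values was not tested. Within libraries, Zic1 reads outnumbered those of Zic4 4.77-, 4.46- and 3.70-fold in Input and 6.66-, 9.25- and 10.3-fold in IP. All IP ratios lay above all Input ratios, by 1.01 on the log2 scale (exact two-sided permutation p = 0.1, the smallest possible, and 0.15 after adjustment over the 3 pairs).

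Zic2 was called higher. It was at 33.4, 40.6 and 35.9 CPM in Input and at 80.2, 44.5 and 61.6 in IP (log2 fold change 0.76, SE 0.20, adjusted p = 0.0107, lost without replicate 1 or 3). Zic5 was at 0.657 CPM in IP and 1.67 in Input and was not called (adjusted p = 0.109), though the stricter filter called it lower (adjusted p = 0.0264). Of 9 tested partners of GLI and ZIC proteins, 2 were higher and 4 lower, with a median of -0.44, or -0.67 with library totals. Without any 1 IP replicate, Input replicate 3 or replicate 3, 10 genes were tested and the median lay between -1.06 and -0.74. Ptch1, the Hedgehog receptor and a target of GLI proteins, fell to 32.9 CPM from 94.7 (-1.52, SE 0.15). Mdfic, a gene of the I-mfa domain family, rose to 15.8 CPM from 3.42 (2.18, SE 0.29), and the importin gene Kpna1 to 85.1 from 67.4 (0.34, lost in 6 of 17 alternatives).

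Zfhx3, on chromosome 8 (107942644 to 108961630, plus strand), stood at 441, 495 and 472 CPM in Input and at 655, 605 and 671.5 in IP. Every IP library was above every Input library, and the increase was 1.37-fold (log2 fold change 0.46, SE 0.08, adjusted p = 0.00132). The size depended on scaling: with library totals it was 0.22 (adjusted p = 0.0591). Zfhx2 rose 1.76-fold (0.82, SE 0.11), to 162 CPM from 92.2, and kept its call in all 17 alternatives. Zfhx4 was at 178 CPM in IP and 194 in Input and was not called (-0.13, adjusted p = 0.329), but was called lower with upper-quartile scaling (-0.31, adjusted p = 0.0401) and library totals (-0.37, adjusted p = 0.0118).

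Gbx2, on chromosome 1 (89927956 to 89931179, minus strand), was close to the detection limit in both fractions. It had 16, 33 and 46 reads in Input and 4, 24 and 17 in IP, which is 0.627, 0.635 and 0.880 CPM against 0.0800, 0.523 and 0.400. All IP values lay below all Input values, but the 95% Poisson interval of 4 reads is 1.09 to 10.2 and that of 24 reads is 15.4 to 35.7, for counting error only. The fitted log2 fold change was -1.09 (SE 0.86, adjusted p = 0.325), so a difference was not detectable at this depth. Left-out libraries moved it between -1.65 (without replicate 2) and -0.62 (without IP replicate 1). Of the 2177 exonic bases of Gbx2, 946 are shared with D130058E05Rik on the opposite strand. With the strand setting not given, reads there cannot be assigned to Gbx2 with certainty, so its level is uncertain beyond counting error. The Gbx2 relative Gbx1 had 0 reads in every library.

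Of the 10 relatives reported across the families 8 were tested, and of these 4 were higher, 1 (Tcf7l1) lower and 3 not called. Over all genes tested, 23.3% were called higher and 24.3% lower. Without replicate 1, or without replicate 3, 1 relative was higher, and without Input replicate 1 or Input replicate 3 there were 2. With upper-quartile scaling or library totals, 2 were higher and 2 lower. The stricter filter tested 7, with 2 higher and 1 lower.

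**Figure D3:**
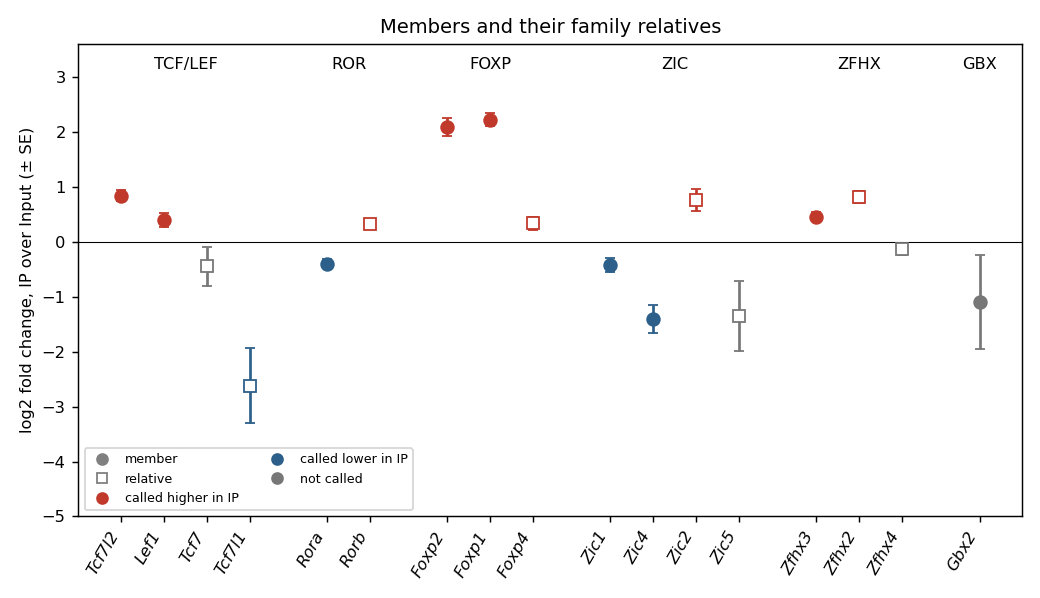
Log2 fold changes of IP over Input with their SE are shown for the 9 factors and their 8 relatives reported, grouped by family. Tcf7l1 lies lowest, at -2.62, and Zfhx2 is the highest of the relatives, at 0.82.

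Levels can be compared between genes only per length, here as CPM per kb of annotated exons. These lengths include bases shared with genes on the opposite strand, such as 946 of 2177 in Gbx2 and 1208 of 8788 in Lef1. In IP, the order was Tcf7l2 (230 ± 22.8 CPM per kb, mean ± SD, n = 3), Rora (75.7 ± 2.55), Foxp1 (46.7 ± 5.96), Foxp2 (34.6 ± 8.71), Zfhx3 (30.7 ± 1.65), Zic1 (24.7 ± 2.45), Lef1 (12.4 ± 1.19), Zic4 (1.63 ± 0.542) and Gbx2 (0.154 ± 0.105). Neighbours in that order had separate ranges over the libraries, except Foxp1 with Foxp2 and Foxp2 with Zfhx3. In Input, the order was Tcf7l2 (128 ± 12.1), Rora (99.6 ± 7.77), Zic1 (33.2 ± 5.16), Zfhx3 (22.4 ± 1.30), Foxp1 (9.98 ± 0.920), Lef1 (9.46 ± 1.53), Foxp2 (8.14 ± 0.159), Zic4 (4.31 ± 0.961) and Gbx2 (0.328 ± 0.0661). There the ranges overlapped only for Foxp1 with Lef1. Foxp1 and Foxp2 thus ranked 3 and 4 in IP and 5 and 7 in Input, and Zic1 ranked 6 in IP and 3 in Input. Among the 14772 tested genes with a matched exon length, Tcf7l2 ranked at the 99.1 percentile in Input and 99.2 in IP on this scale. Foxp1 went from 75.6 to 93.8 and Foxp2 from 70.9 to 91.2.

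**Figure D4:**
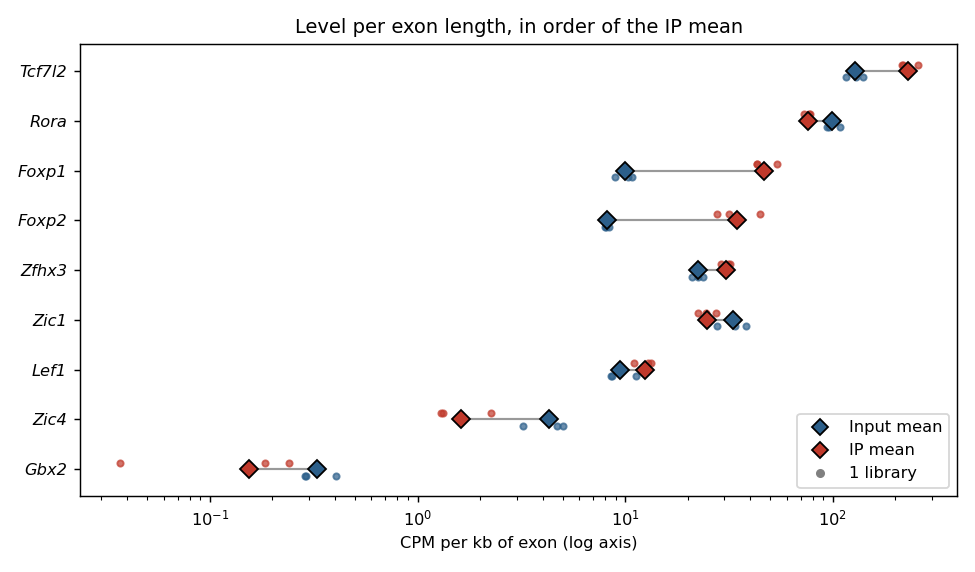
The horizontal log axis gives CPM per kb of annotated exon, with 1 row per factor in the order of the IP mean, diamonds for group means and small points for single libraries. Foxp1 and Foxp2 show the widest gap with IP to the right of Input, and Zic4 lies to the left.

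Most genes of a pan-neuronal list were higher in IP as well. Of 20 pan-neuronal genes, 16 were higher and 1 lower in IP, and their geometric mean rose by 0.69 on the log2 scale. Measured against that geometric mean in the same library, Foxp1 was still higher in IP by 1.53 and Foxp2 by 1.37 (log2, groups apart). Tcf7l2 differed by 0.15 with overlapping groups (0.93 to 1.27 in Input, 1.19 to 1.39 in IP). Zfhx3 and Lef1, called higher on the CPM scale, lay below Input on this scale by -0.23 and -0.29, with groups barely apart. For Zfhx3 the highest IP value was -0.28 and the lowest Input value -0.274, and for Lef1 they were -2.846 and -2.825. Rora (-1.08), Zic1 (-1.11), Zic4 (-2.11) and Gbx2 (-2.15) lay further below Input. These are descriptions with no test, and no sign changed with the median of the 20 genes as the reference or without any 1 library, settings chosen after the data had been seen.

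**Figure D5:**
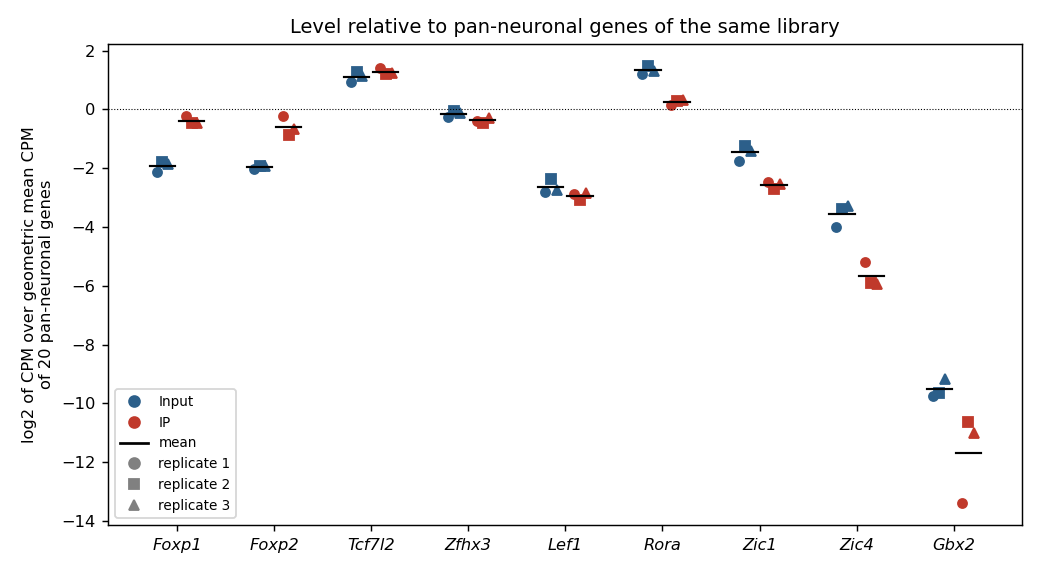
The vertical axis gives the log2 of each factor's CPM over the geometric mean CPM of 20 pan-neuronal genes in the same library, with 1 symbol per replicate and lines for group means. Foxp1 and Foxp2 lie higher in IP, Tcf7l2 overlaps, and the other 6 factors lie lower.

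Markers of other cells were mostly lower in IP, and several of the 9 factors are also made outside relay neurons. All 18 astrocyte markers were called lower (summed level 929 to 1028 CPM in IP, 2935 to 3022 in Input), as were all 18 oligodendrocyte markers (449 to 558 against 4539 to 5190) and all 10 of the precursor list (23.6 to 36.9 against 277 to 285). Of the microglial markers 9 of 12 were called lower (10.8 to 12.2 CPM against 58.9 to 69.8), of the endothelial 10 of 14, of the mural and meningeal 8 of 16 with 1 higher (14.8 to 23.0 against 75.6 to 97.1), and of the ependymal and choroid plexus 6 of 9 (8.22 to 50.8 against 50.5 to 617). GABAergic and reticular thalamic markers had 11 of 18 lower and 1, Npy, higher (168 to 174 CPM against 748 to 1020). All 14 habenular markers were called lower (114 to 175 against 329 to 444), or 9 of them without Input replicate 3 and 8 without replicate 2 or without replicate 3. The endothelial count was 6 without replicate 3, and the mural and meningeal count 5 without Input replicate 1, Input replicate 2 or replicate 2, with 0 higher without Input replicate 3, replicate 2 or replicate 3. Of 27 further genes of glutamatergic thalamic neurons, 11 were higher, 7 lower and 9 not called, among them Cbln4 (3.43) and Cbln2 (2.30) at the top and Tnnt1 (-2.94) and Inadl (-2.88) at the bottom. The part of these other cells in the falls of Zic1, Zic4 and Rora was not tested.

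Other transcription factors of the diencephalon were mostly lower in IP. Of 36 tested, 22 were lower, 6 higher and 8 not called, with a median log2 fold change of -2.09. This list is not independent of the marker lists above. Six3, Meis2 and Isl1 (GABAergic), Pou4f1, Nr4a2 and Irx2 (habenular) and Otx2 (choroid plexus) are on both, and all were called lower. The 6 that were higher, of which all but the first pair were named after their values were seen, were Lhx2 (2.30, from 23.0 to 113 CPM), Etv1 (2.07, from 67.5 to 284 CPM), Bcl11a (1.71), Esrrg (0.90), Nr2f1 (0.63) and Lhx9 (0.54, lost in 5 of 17 alternatives). Lhx2 and Lhx9 are LIM homeobox genes of the embryonic thalamus. The largest falls at a mean of 5 CPM or more were in Six3 (-4.24, from 22.7 CPM in Input), a gene of the reticular nucleus and ventral forebrain, and Otx2 (-3.55, from 19.1 to 1.63 CPM), a gene that the choroid plexus also expresses.

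The genes whose levels moved most like each factor over the 6 libraries were found by the root mean square (RMS) difference of log2 CPM centred on each gene's mean, among 10772 genes. Tcf7l2 was nearest to BC037034 (RMS difference 0.039), H2afy2 (0.041) and the synaptic vesicle gene Syt1 (0.043). Foxp2 was nearest to Etv1 (0.061), the ETS factor named above, then Lhfpl3 (0.090) and Tbca (0.111), and Foxp1 to Nxph1 (0.086), Lhfpl3 (0.116) and Plcxd2 (0.118). Rora was nearest to Stxbp4 (0.032), Fam193a (0.044) and Prox1 (0.046), a homeobox factor of the diencephalon that fell by 0.43. Zic4 was nearest to Tulp3 (0.129) and Mccc1 (0.148). Zic1 was nearest to Akap8l (0.064), Agbl5 (0.070) and Ptpn4 (0.072), Lef1 to Alg8 (0.071), Alas1 (0.072) and Wdr61 (0.077), and Zfhx3 to Vps35 (0.022), Actr10 (0.027) and Polr3d (0.030). The measure takes in the difference between IP and Input itself, and the 6 points are 3 libraries of each fraction.

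Gene span was looked at beside the calls, since 6 of the 9 factors span more than 100 kb of genome. Of the 2279 tested genes of that span with an annotated length, 22.7% were called higher and 33.4% lower, with a median log2 fold change of -0.21. Of 12493 shorter genes 25.7% were called higher and 20.6% lower, with a median of 0.02. Of the 6 long members 5 were called higher, namely Foxp1 (597384 bases), Foxp2 (540629 bases), Zfhx3 (1018987 bases), Tcf7l2 (191835 bases) and Lef1 (113886 bases), and Rora (734461 bases) was lower. The part of gene span in these values was not tested.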

How the data were processed

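The authors deposited unnormalized read counts for each gene, 1 file per library. Reads were aligned with STAR 2.0.0e to mm10 and counted with HTSeq, per the submitters' processing notes; no HTSeq version, strand setting or annotation is given in the sources used here. Summary lines that name no gene entered neither library sizes nor tests. Reads that were not uniquely aligned made up 45.9% of all lines in IP and 33.3% in Input, and those over several features 1.48% and 5.89%.

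All 6 libraries were fitted in R 4.3.3 with edgeR 4.0.16 (filterByExpr with a minimum count of 10, TMM scaling, robust quasi-likelihood F-test), and p-values were adjusted by Benjamini-Hochberg over the 16898 genes tested, with a threshold of 0.05. SE were derived from the F statistic. The test was also run on simulated counts with few changed genes, balanced in direction, and the same spread setting for every gene. That setting lacks the many calls and the uneven spread of these libraries, so it does not speak to them. Paralog ratios used counts plus 0.5 and an exact permutation test. Alternatives were the replicate number as a block, DESeq2 1.42.0, limma-voom (limma 3.58.1), upper-quartile scaling, library totals, the table without Rn45s, a stricter filter (at least 10 counts in every library), no filter, and each library or replicate number left out. Exon lengths from GENCODE vM21 were matched for 14772 genes (87.4%).

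The members and lists were chosen with earlier results of these data known. Named genes were all members, their tested relatives, for each other list the 2 highest and 2 lowest called ones at a mean CPM of 5 or more (not all are printed), and the 3 genes most like each member; any other gene was named after its values were seen. A few relatives and like genes are left unreported, and counts of relatives omit them. Figures were drawn with matplotlib 3.10.9.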

Additional observations from a re-analysis of the deposited data

How the results depend on the processing

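Foxp1, Foxp2, Tcf7l2, Rora and Zic4 kept their direction and their call in all 17 alternatives. No member changed direction in any alternative that could be fitted, and Gbx2 had 16, because the stricter filter removed it. Against the pan-neuronal genes, a scale outside these alternatives, Lef1 (-0.29) and Zfhx3 (-0.23) lay lower in IP, with groups barely apart. Lef1 was no longer called with upper-quartile scaling (log2 fold change 0.22), library totals (0.15) or the stricter filter (0.29, adjusted p = 0.0900), and the cause was not tested. Library totals left 2458 genes and 3 members called higher, with Zfhx3 at 0.22. Leaving out 1 library or 1 replicate number gave 0.28 to 0.62 for Lef1 and -0.61 to -0.24 for Zic1, with adjusted p of 0.0509 to 0.231 and 0.0541 to 0.183 where the calls were lost. It gave 4 to 5 members higher and 2 to 3 lower, and 2659 to 4392 genes higher and 3017 to 5066 lower over the whole table (without replicate 3 and without Input replicate 2 the fewest). Zic4 ranged from -1.88 to -1.13, and the ratio of Zic1 to Zic4 differed by 0.77 to 1.27. Where a fraction kept 2 libraries, the fit pools the spread over all of them. Fewer marker genes were called lower with the stricter filter, which tests fewer genes.

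Replicate numbers are also sequencing lanes. Same-numbered libraries deviated together with correlations of 0.182, 0.0616 and 0.0554 over 10788 genes, and only those numbered 1 correlated best with each other, so the numbers were not taken to pair the samples. With the replicate block 3793 genes were higher and 4038 lower, and again 5 members were higher and 3 lower. Low counts limit what can be seen of Gbx2.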
